A study of Danio rerio with 4 samples.

Results

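Ribosome biogenesis genes, whose products make ribosomal RNA in the nucleolus and assemble it with ribosomal proteins into the small and large subunits, were followed in whole zebrafish (*Danio rerio*) embryos with and without SYP-3343. The set was given by name as 56 zebrafish symbols and was chosen with earlier results of these data known. Of these symbols, 55 matched 1 Ensembl identifier each among the 28290 gene models of the deposited counts. The symbol *pes* (pescadillo) did not match, and the row that carries its human symbol, *PES1*, is described apart and not counted. RNA was taken from wild-type (WT) embryos in 2 control libraries, labelled untreated, and in 2 libraries of WT embryos given SYP-3343 (known here only by that code) at 8 µg/L between 3 and 24 hours after fertilization. Every library is thus wild type and of whole embryos, no mutant line or second agent is named in the labels, and the design text speaks of 40 embryos without saying whether they stand for a library or a group. The series' title asks about harm to development through mitochondria and reactive oxygen species.

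The libraries held between 46165614 and 59054470 counts, and the 55 genes had between 205 and 27338 counts in any library. The labels call the libraries of a group biological replicates without naming a clutch or tank, so each p-value reflects the spread among these samples, which may be technical. Of 80 marker genes in 13 lists for tissues of the embryo (muscle, heart, neurons, neural progenitors, notochord, epidermis, hatching gland, blood, endothelium, eye, yolk layer, tailbud and cycling cells), none was at 0 in all libraries. Levels are CPM, counts relative to the library total, with totals scaled by TMM factors, which come from a trimmed mean of gene-wise ratios between libraries. Means are given ± SD over the 2 libraries of a group. The value in parentheses after a gene's name is the log2 fold change of exposed over control embryos ± its standard error. Genes rose or fell, as worded here, where the adjusted p of edgeR's quasi-likelihood test was under 0.05 over all 22647 genes tested. In RNA from whole embryos, fewer cells of a type and less RNA per cell cannot be told apart.

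In the nucleolus, RNA polymerase I transcribes a long precursor of ribosomal RNA. Small nucleolar ribonucleoproteins (snoRNPs) modify it, a large assembly called the small-subunit processome folds and cuts its first part, and other factors build and export the large subunit. Growing and dividing cells use these genes heavily. In zebrafish, loss of several of them is known to leave small eyes, brains and digestive organs.

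With TMM scaling, 26 of the 55 genes rose in exposed embryos, 1 fell and 28 did not pass the test. Of all genes tested, 31.9% passed, 16.6% rising and 15.3% falling, against 47.3% and 1.82% of these 55. Each of the 55 had at least 205 counts in every library, while all genes tested include some with far fewer. Small changes are harder to call at low counts. Shares of all genes, here and below, were not matched for counts, so part of such a gap can lie in what the test could detect. The rises were uneven. Those of *ddx21*, *nop53*, *bop1* and *heatr1*, 4 of the 55, were 2-fold or more, from 2.05-fold to 3.97-fold. Of all genes, 6.59% reached that size in either direction with the test passed, a share near that of the 55. The other 22 rises ran from 1.18-fold to 1.84-fold. The 28 genes that did not pass had log2 fold changes from -0.19 to 0.28, and *imp3* (-0.40 ± 0.12) was the one that fell. The median log2 fold change of the 55 was 0.24, beside -0.01 for all genes tested, and 47 of the 55 lay above the median gene.

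**Figure D1:**
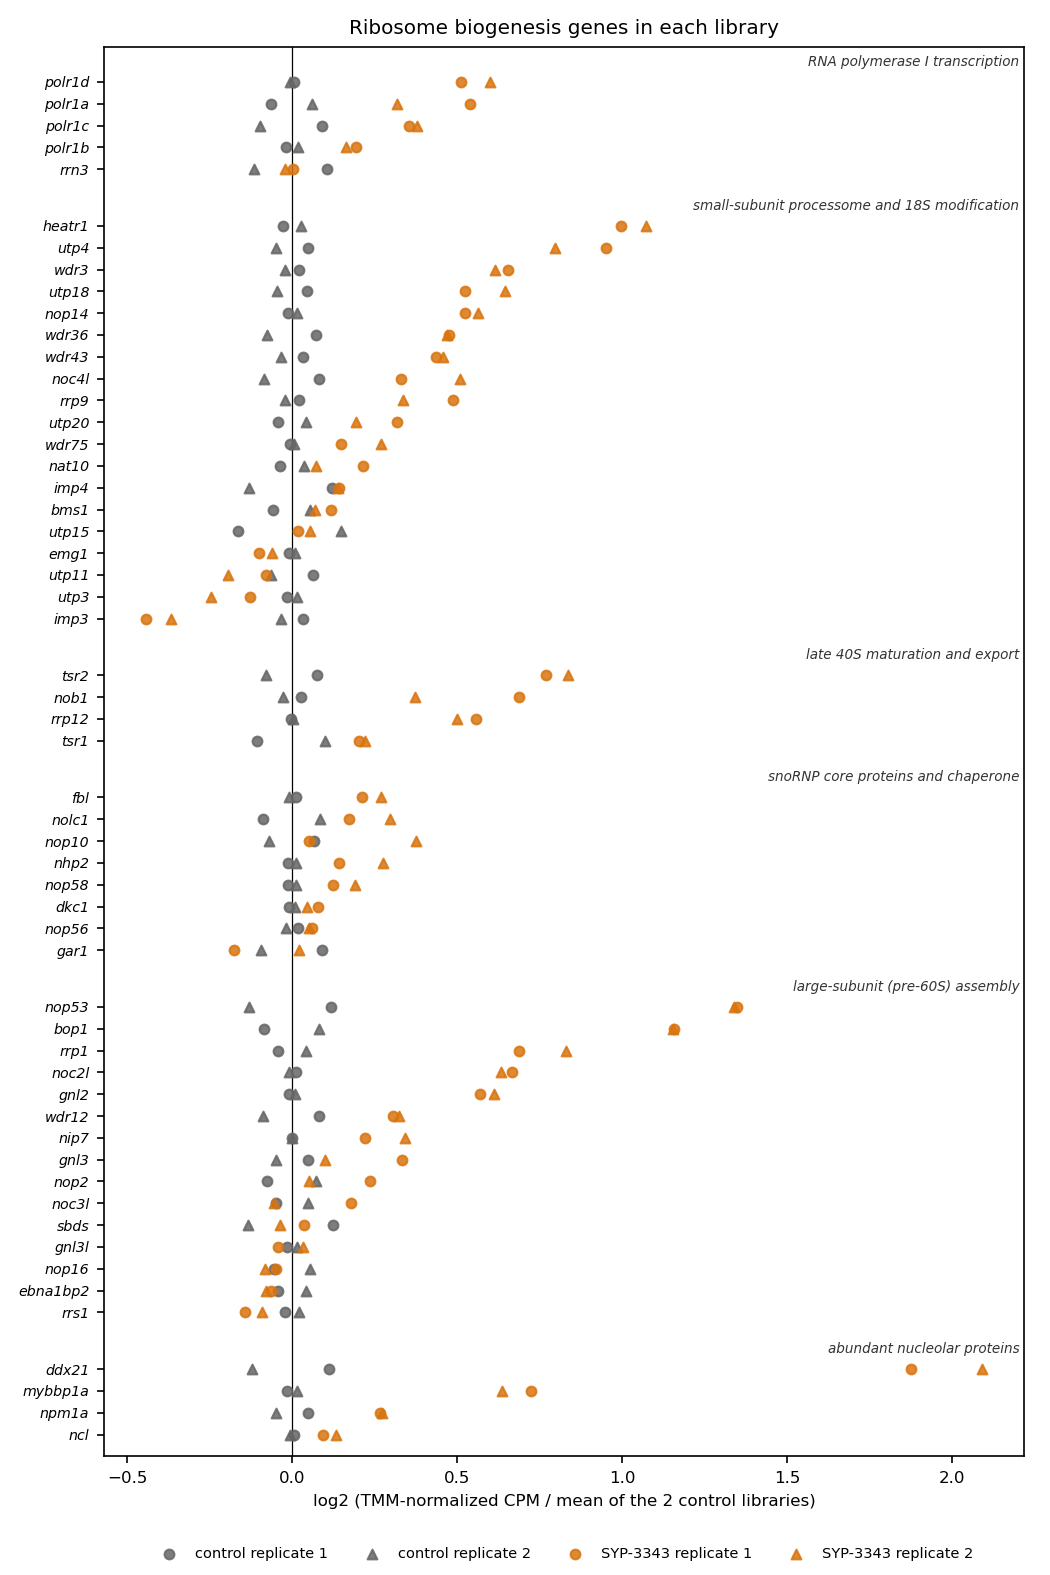
Each row is 1 of the 55 genes, grouped by role, and each point is 1 library, plotted as the log2 ratio of its TMM-normalized CPM to the mean of both controls (grey, controls; orange, SYP-3343; circles and triangles, replicates 1 and 2). Both SYP-3343 points lie to the right of both control points for 40 genes and to the left for 6, and *ddx21* stands farthest to the right.

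The direction of many of these genes depended on the scaling, with 45 of the 55 log2 fold changes above 0 with TMM factors and 22 with library sizes alone. Library sizes alone means without scaling factors. The median log2 fold change of all tested genes then moved to -0.35 and that of the 55 genes to -0.10. A change of scaling moves every gene by about the same amount. The gap of about 0.25 between these 2 medians was therefore bound to stay nearly the same, and its stability is not a separate result. On that scale 47.6% of all genes passed. Of the 55, 11 were higher, beside 6.2% of all genes, and 14 were lower, beside 41.4%. Upper-quartile factors lay between, with 21 higher and 1 lower, beside 13.4% and 19.7% of all genes (33.1% in either direction). RLE factors gave 26 and 1, beside 17.0% and 14.8% (31.9% in either direction). The 11 were *ddx21*, *nop53*, *bop1*, *heatr1*, *utp4*, *tsr2*, *rrp1*, *mybbp1a*, *noc2l*, *wdr3* and *gnl2*, and each of them also rose with TMM factors and under all 14 alternative fits. Their log2 fold changes ran from 0.59 to 1.99 with TMM factors and from 0.26 to 1.65 with library sizes alone. The other 15 genes that rose with TMM factors did not pass with library sizes alone, and of the 28 that had not passed, 13 were lower there. Among them were *ncl*, *dkc1*, *nop56*, *gar1* and *rrn3*.

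The libraries' own order can be read the same way. On TMM-scaled CPM, both SYP-3343 libraries stood above both controls for 40 of the 55 genes (32.2% of all genes tested) and below both for 6 (33.7%). On CPM from library sizes alone, both stood above for 17 (11.9%) and below for 25 (62.2%). A share of all counts in a library is again the scale of library sizes alone. On it the 55 genes together took 0.277% and 0.28% in the controls and 0.304% and 0.287% in the SYP-3343 libraries. Without *ddx21* and *nop53* these shares were 0.257% and 0.263% in the controls and 0.258% and 0.241% with SYP-3343, and the groups then overlapped. These genes had the largest rises of the 55, so leaving them out was bound to lower the exposed shares relative to the controls. The overlap is a description and not a test of the remaining genes.

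**Figure D2:**
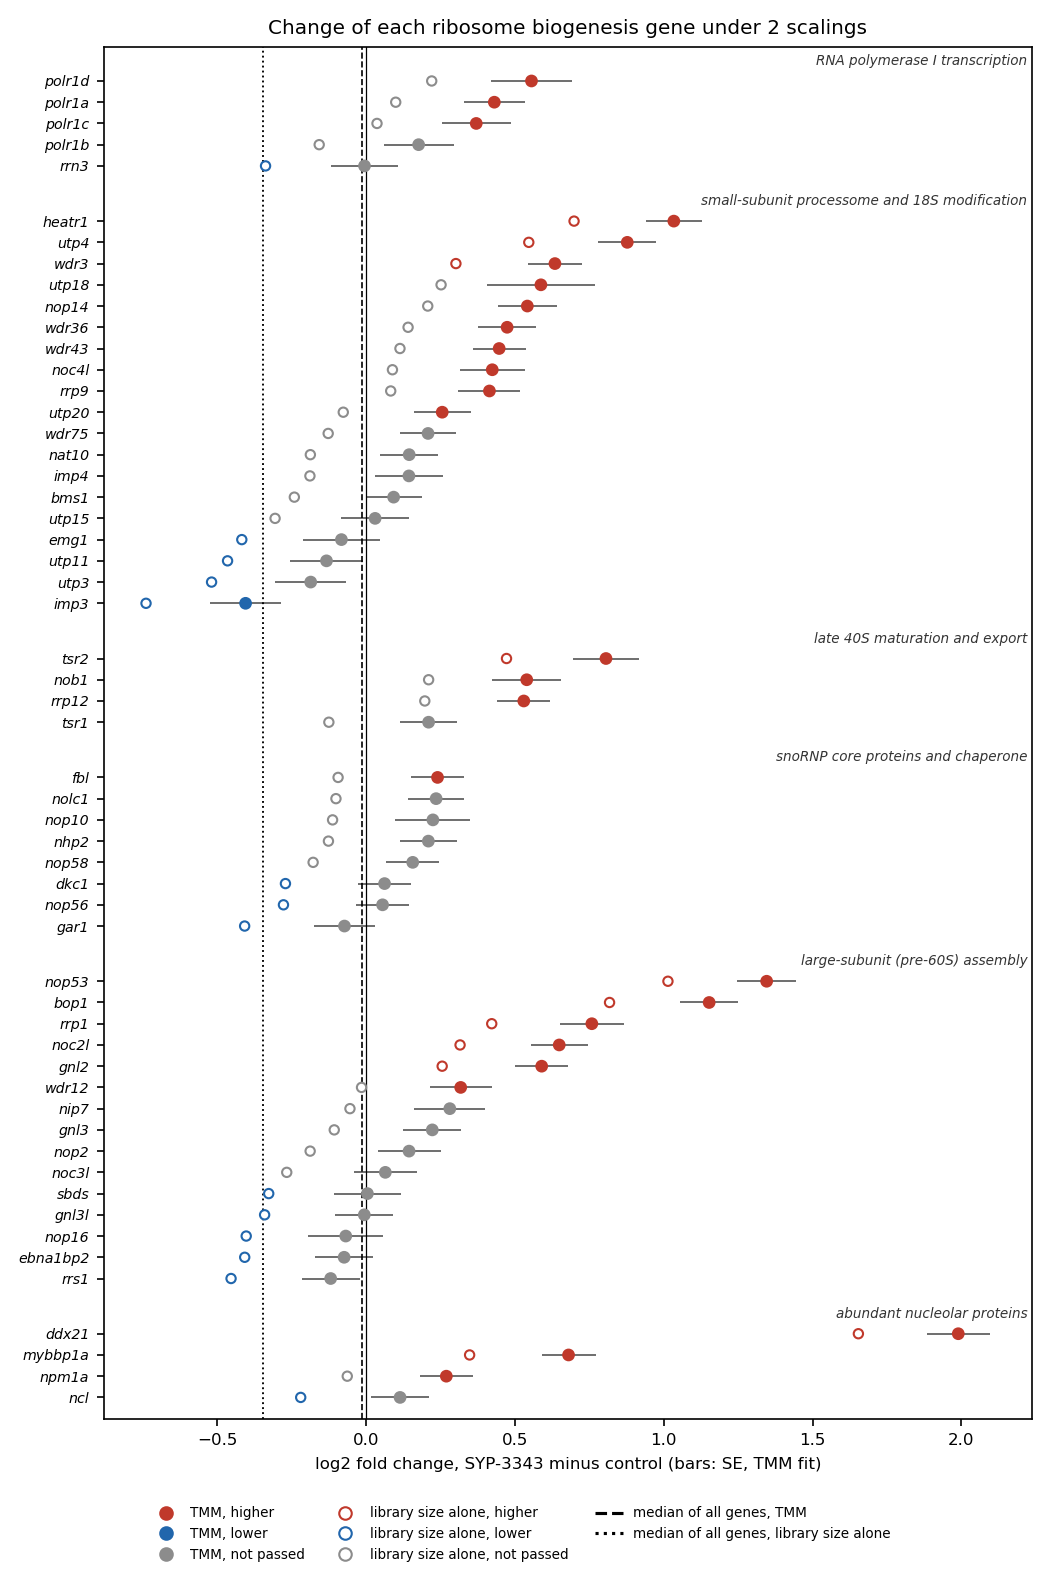
Filled points give the log2 fold change of each gene with TMM factors (bars, SE) and open points the one with library sizes alone, with red for higher, blue for lower and grey for not passed at an adjusted p of 0.05. The vertical lines mark the median of all genes, -0.01 with TMM factors and -0.35 with library sizes alone, and the 11 genes red under both scalings include *ddx21*, *nop53*, *bop1*, *heatr1* and *utp4*.

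Among abundant nucleolar proteins, 3 of 4 genes rose with TMM factors and 2 of them with library sizes alone. Of all genes tested, 16.6% and 6.2% did, but 4 genes are too few for such a share to set them apart. *ddx21* (ENSDARG00000063626) encodes a nucleolar RNA helicase that acts on ribosomal RNA transcription and on snoRNAs in human cells. Its level was 78.4 and 66.6 CPM in control replicates 1 and 2 and 266 and 309 CPM in SYP-3343 replicates 1 and 2. Both exposed libraries stood far above both controls, without overlap. The mean went from 72.5 ± 8.37 to 288 ± 30.3 CPM, a 3.97-fold difference (log2 fold change 1.99 ± 0.11, adjusted p = 1.07e-11). *ddx21* alone took 3.14% and 2.71% of the summed counts of the 55 genes in the controls and 8.09% and 9.27% with SYP-3343. Nucleolin (*ncl*), which binds ribosomal RNA precursors and held the largest share of these counts in every library, went from 16.4% and 16.5% to 13.3% and 13.5%. Its level was 410.4 and 407 CPM in the controls and 436 and 449 CPM in the SYP-3343 libraries (log2 fold change 0.11 ± 0.10, adjusted p = 0.400), and it did not pass with TMM factors. Library sizes alone put *ncl* lower (log2 fold change -0.22, adjusted p = 0.0343). *mybbp1a*, a nucleolar protein that can bind MYB and other transcription factors, rose from 44.6 ± 0.622 to 71.5 ± 2.98 CPM (0.68 ± 0.091). The histone chaperone and nucleolar scaffold *npm1a* (0.27 ± 0.090) rose with TMM factors but not with library sizes alone (-0.063), with upper-quartile factors (adjusted p = 0.0907) or without 1 of 3 libraries: control replicate 2, SYP-3343 replicate 1 or SYP-3343 replicate 2.

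Large-subunit assembly held the next largest rises, in 6 of 15 genes (40%), with 0 falls and 9 that did not pass. Of all genes tested, 16.6% rose and 15.3% fell. Without scaling factors, 5 of the 15 were higher (33.3%) and 5 lower (33.3%), beside 6.2% and 41.4% of all genes. The gene *nop53* (ENSDARG00000100452) encodes a late large-subunit factor that recruits the RNA exosome in yeast. It stood at 96.8 and 81.5 CPM in control replicates 1 and 2 and 227 and 226 CPM in SYP-3343 replicates 1 and 2. The exposed libraries were nearly equal and both more than double the higher control. The difference was 2.54-fold (log2 fold change 1.35 ± 0.10, adjusted p = 9.49e-10). *bop1* (ENSDARG00000063627), the subunit that holds the Pes, Bop and WDR complex together, measured 23.5 and 26.4 CPM in the controls and 55.6 and 55.5 CPM in the SYP-3343 libraries. Here too the groups were apart, with a 2.22-fold difference (log2 fold change 1.15 ± 0.10, adjusted p = 9.29e-09). RefSeq's annotation of another assembly (GRCz12tu) places a protein-coding gene over 12 of the 55. Of genes that rose, these include *rrp1*, *gnl2*, *rrp9*, *utp20*, *npm1a* and *bop1*. For *bop1* the overlapping gene is *scxa*. The *scxa* row held 323 to 401 counts in each library and did not pass (log2 fold change 0.34, adjusted p = 0.11).

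The partners of *bop1* in that complex had smaller fold changes. *wdr12* measured 23.1 and 20.5 CPM in the controls and 26.9 and 27.3 CPM in the SYP-3343 libraries (log2 fold change 0.32 ± 0.10, adjusted p = 0.0235). It rose with TMM factors, but not with library sizes alone (-0.015), upper-quartile factors (adjusted p = 0.0708) or DESeq2 (adjusted p = 0.0551), nor without control replicate 2, SYP-3343 replicate 1 or SYP-3343 replicate 2. The row named *PES1* measured 42.9 and 42.7 CPM in the controls and 48 and 46.7 CPM in the SYP-3343 libraries (log2 fold change 0.15 ± 0.092, adjusted p = 0.236) and did not pass. Differences between the fold changes of *bop1*, *wdr12* and *PES1* were not tested.

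Of the other genes of the large subunit, *rrp1* (0.76 ± 0.11), *noc2l* (0.65 ± 0.10) and *gnl2* (0.59 ± 0.090) rose under both scalings. *noc2l* and *noc3l* belong to a family of nucleolar assembly factors known from yeast, and *noc3l* (0.065 ± 0.10) did not pass. Nucleolar GTPases differed in their calls. *gnl2* measured 48.7 and 49.4 CPM in the controls and 72.7 and 75 CPM in the SYP-3343 libraries, and its groups did not overlap. Nucleostemin (*gnl3*, 0.22 ± 0.10), a GTPase of stem and progenitor cells, did not pass, though it did without SYP-3343 replicate 2 (adjusted p = 0.0427), nor did its paralog *gnl3l* (-0.0055 ± 0.10). The other members below the test were *nip7* (0.28 ± 0.12), the ribosomal RNA methyltransferase *nop2* (0.14 ± 0.11), *nop16* (-0.068 ± 0.13), *ebna1bp2* (-0.073 ± 0.10), *rrs1* (-0.12 ± 0.10) and *sbds* (0.0050 ± 0.11). *sbds*, the gene of Shwachman-Diamond syndrome in people, releases a factor that keeps the subunits apart. It measured 23.8 and 19.9 CPM in the controls and 22.4 and 21.3 CPM in the SYP-3343 libraries, so the control libraries enclosed both exposed ones. RefSeq places *porb* over *sbds* in GRCz12tu, and both rows that the name table pairs with that symbol rose (log2 fold changes 0.58 and 0.70). *rrs1*, which brings in the RNA that the large subunit takes from outside the nucleolus, had the lowest log2 fold change of the group, at 29.7 and 30.6 CPM in the controls and 27.3 and 28.3 CPM in the SYP-3343 libraries (log2 fold change -0.12 ± 0.10, adjusted p = 0.388). Both exposed libraries lay below both controls by less than the test could call, and with library sizes alone *rrs1* was lower (-0.45, adjusted p = 0.00267).

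**Figure D3:**
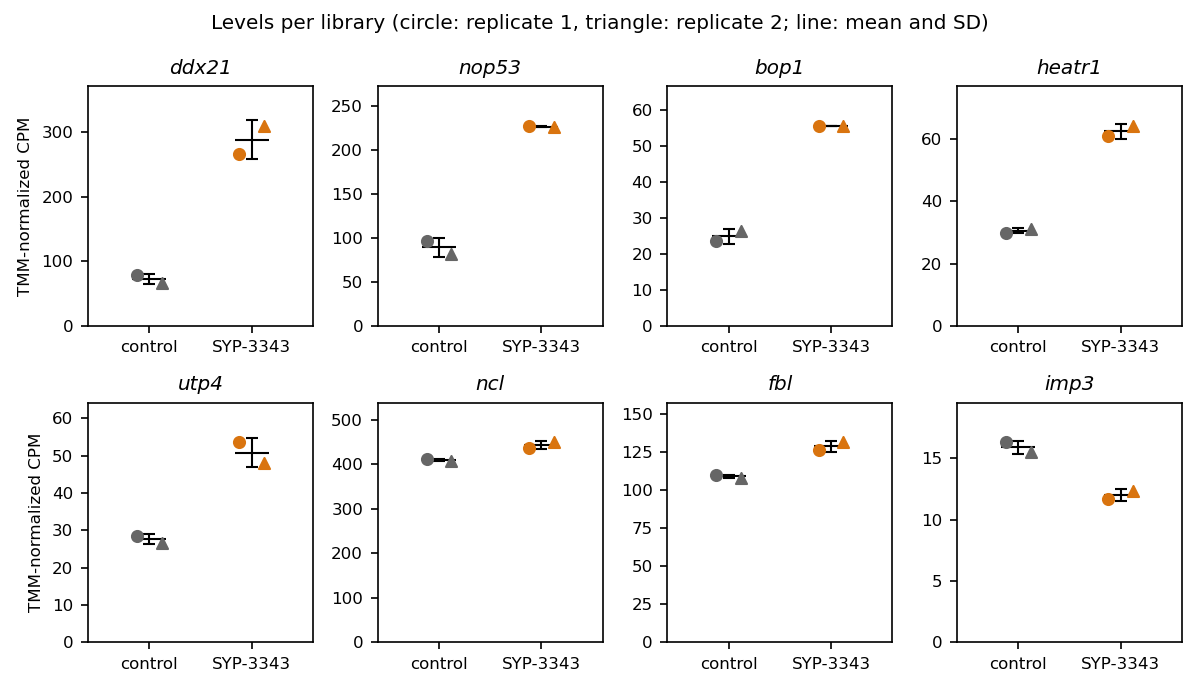
TMM-normalized CPM of 8 genes in each library (circles, replicate 1; triangles, replicate 2; lines, mean and SD of the 2 libraries of a group, axes from 0). The SYP-3343 libraries lie at 266.3 and 309 CPM for *ddx21* against 78.4 and 66.6 in the controls, while *ncl* differs 1.08-fold, *fbl* 1.18-fold and *imp3* lies lower.

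Genes of the small-subunit processome split. Of 19 genes, 10 rose (52.6%), 1 fell (5.26%) and 8 did not pass, beside 16.6% of all genes rising and 15.3% falling. With library sizes alone 3 were higher (15.8%) and 4 lower (21.1%), beside 6.2% and 41.4% of all genes. *heatr1* (ENSDARG00000099742), the processome protein whose zebrafish mutant is called bap28, measured 29.9 and 31 CPM in control replicates 1 and 2 and 60.8 and 64.1 CPM in SYP-3343 replicates 1 and 2. Each exposed library was about double each control. The fold difference was 2.05 (log2 fold change 1.03 ± 0.093, adjusted p = 2.55e-08). *utp4* belongs with *heatr1* and *utp15* to a subcomplex that joins the nascent transcript first. It measured 28.6 and 26.7 CPM in the controls and 53.6 and 48.1 CPM in the SYP-3343 libraries (log2 fold change 0.88 ± 0.10, adjusted p = 5.82e-07), again without overlap. *utp15* did not pass, with 19.97 and 24.8 CPM in the controls and 22.6 and 23.2 CPM in the SYP-3343 libraries (log2 fold change 0.031 ± 0.11, adjusted p = 0.867). There the controls differed from each other by more than the groups did. *wdr43* measured 96.1 and 91.9 CPM in the controls and 127 and 129 CPM in the SYP-3343 libraries, without overlap. *wdr43* (0.45 ± 0.089) and *wdr75* (0.21 ± 0.10) are of the same subcomplex, and the first rose while the second did not pass.

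A second subcomplex holds *wdr3*, *utp18* and *wdr36* as propeller-shaped scaffold proteins. *wdr3* (0.63 ± 0.091) rose under both scalings, and *utp18* (0.59 ± 0.18) and *wdr36* (0.47 ± 0.10) rose with TMM factors alone of these 2 scalings. *utp18* had the fewest counts of the set, at 205 to 261 per library, and its standard error was the widest. Its call ended without control replicate 2 or SYP-3343 replicate 2 and with DESeq2 (adjusted p = 0.0611). *nop14* (0.54 ± 0.10) and *noc4l* (0.42 ± 0.11), which bind each other in yeast, rose, and *noc4l* did not pass without SYP-3343 replicate 2. *rrp9* (0.41 ± 0.10), a protein of the snoRNP that starts small-subunit cleavage, rose, though not without SYP-3343 replicate 1. *utp20* (0.26 ± 0.10, adjusted p = 0.0466) was at the edge of the threshold. Its call ended without control replicate 1, SYP-3343 replicate 1 or SYP-3343 replicate 2, with upper-quartile factors (adjusted p = 0.145), DESeq2 (0.0784), no low-count filter (0.0671), the replicate number as a block (0.0529) and the legacy fit (0.0504). Without scaling factors none of *utp18*, *wdr36*, *wdr43*, *nop14*, *noc4l*, *rrp9* and *utp20* passed.

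*imp3* (ENSDARG00000115266) was the exception in direction. Its product forms a small complex with Imp4 that helps a snoRNA pair with the ribosomal RNA precursor. *imp3* measured 16.3 and 15.5 CPM in control replicates 1 and 2 and 11.7 and 12.3 CPM in SYP-3343 replicates 1 and 2. Both exposed libraries lay below both controls, a fall of 1.32-fold (log2 fold change -0.40 ± 0.12, adjusted p = 0.0125). It was called lower in 13 of 14 alternative fits, and the call ended without SYP-3343 replicate 1 (log2 fold change -0.36). Library sizes alone (-0.74) are among the 13, but they move every gene down by about the same amount and could not have reversed a fall. Its partner *imp4* measured 19.9 and 16.7 CPM in the controls and 20.1 and 20.1 CPM in the SYP-3343 libraries (0.14 ± 0.11) and did not pass. RefSeq places *sec22ba* over *imp3* in GRCz12tu, and neither row named *SEC22B* in the table passed. The remaining genes did not pass. They were *bms1* (0.093 ± 0.094), a GTPase of the processome, *nat10* (0.15 ± 0.10), which acetylates small-subunit RNA, the methyltransferase *emg1* (-0.082 ± 0.13), *utp11* (-0.13 ± 0.12) and *utp3* (-0.19 ± 0.12). The last 3 had both exposed libraries below both controls, and were lower with library sizes alone.

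Of 4 genes for late maturation and export of the small subunit, 3 rose (75%, beside 16.6% of all genes tested). A group of 4 is too small for its share to set it apart from other genes. *tsr2*, an escort of a small-subunit ribosomal protein in yeast, measured 14.9 and 13.4 CPM in the controls and 24.2 and 25.3 CPM in the SYP-3343 libraries (log2 fold change 0.81 ± 0.11, adjusted p = 8.15e-06). The groups were well apart, and *tsr2* rose under both scalings. *rrp12* (0.53 ± 0.089), an export factor, measured 65.4 and 65.6 CPM in the controls and 96.5 and 92.7 CPM in the SYP-3343 libraries, with the groups apart. *nob1* (0.54 ± 0.12), the nuclease that makes the last cut of small-subunit RNA, went from 17.7 ± 0.473 to 25.6 ± 3.96 CPM, and its call ended without SYP-3343 replicate 1 (adjusted p = 0.0517). The GTPase-like factor *tsr1* measured 38 and 43.7 CPM in the controls and 47 and 47.6 CPM in the SYP-3343 libraries (log2 fold change 0.21 ± 0.10, adjusted p = 0.104). It did not pass, but did without control replicate 2 (adjusted p = 0.026). Of these 4, *tsr2* was the one that was higher with library sizes alone (25%, beside 6.2% of all genes), and 0 were lower, beside 41.4%.

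Of 8 snoRNP genes 1 rose (12.5%, beside 16.6% of all genes tested), 0 fell and 7 did not pass, and the median log2 fold change was 0.18. Fibrillarin (*fbl*), the methyltransferase of the box C/D class, measured 109.8 and 108 CPM in the controls and 126 and 131 CPM in the SYP-3343 libraries (log2 fold change 0.24 ± 0.088, adjusted p = 0.0422). Its exposed libraries stood a little above both controls, and its call ended when any 1 library was left out and with library sizes alone (-0.094), upper-quartile factors, the replicate number as a block and no low-count filter. Its partners *nop56* (0.056 ± 0.089) and *nop58* (0.16 ± 0.088) did not pass. *nop56* measured 147 and 143 CPM in the controls and 151 and 150.4 CPM in the SYP-3343 libraries. In the box H/ACA class, which converts uridine to pseudouridine, the enzyme dyskerin (*dkc1*, 0.063 ± 0.088) did not pass. Neither did *nhp2* (0.21 ± 0.10), *nop10* (0.22 ± 0.13) or *gar1* (-0.072 ± 0.10). *gar1* measured 38.4 and 33.8 CPM in the controls and 32 and 36.7 CPM in the SYP-3343 libraries, so its groups overlapped. The snoRNP chaperone *nolc1* (0.24 ± 0.10) did not pass, but did without control replicate 2 (adjusted p = 0.02) and with the filter of 1 CPM in 2 libraries (adjusted p = 0.0497). On library sizes alone *dkc1*, *nop56* and *gar1* were lower (37.5%, beside 41.4% of all genes) and the other 5 did not pass.

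Several of these genes carry snoRNAs within their introns in vertebrates. RefSeq's annotation of GRCz12tu places a snoRNA inside 5 of the 55, namely *dkc1*, *ncl*, *nop2*, *nop56* and *nop58*. None of the 5 passed with TMM factors, beside 31.9% of all genes tested, and their log2 fold changes there ran from 0.056 to 0.16. Of them, 3 were lower with library sizes alone, beside 41.4% of all genes. A count of 5 is too small to set these genes apart from others. The libraries were selected on poly-T beads, so the snoRNAs themselves are not what these counts measure.

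RNA polymerase I was represented by 4 subunits and 1 initiation factor, of which 3 rose (60%, beside 16.6% of all genes) and 2 did not pass. The share of so few genes does not set them apart from others. The large catalytic subunit *polr1a* measured 28.9 and 31.5 CPM in control replicates 1 and 2 and 43.9 and 37.6 CPM in SYP-3343 replicates 1 and 2 (log2 fold change 0.43 ± 0.10, adjusted p = 0.00259). Both exposed libraries were higher, and the first by more than the second. Its call ended without SYP-3343 replicate 1 (adjusted p = 0.0693). *polr1b* (0.18 ± 0.12), the second catalytic subunit, did not pass. *polr1c* and *polr1d* serve RNA polymerases I and III alike. *polr1d* measured 7.57 and 7.5 CPM in the controls and 10.8 and 11.4 CPM in the SYP-3343 libraries (log2 fold change 0.56 ± 0.14, adjusted p = 0.00347), and *polr1c* rose as well (0.37 ± 0.12), though not without control replicate 2, SYP-3343 replicate 1 or SYP-3343 replicate 2, nor with upper-quartile factors (adjusted p = 0.0501) or DESeq2 (adjusted p = 0.0545). The initiation factor *rrn3*, known as TIF-IA, measured 21.8 and 18.7 CPM in the controls and 20.3 and 19.98 CPM in the SYP-3343 libraries (log2 fold change -0.0048 ± 0.11, adjusted p = 0.981). Its groups overlapped, with control libraries on both sides of the exposed ones. None of these 5 was higher with library sizes alone, and *rrn3* was lower (-0.34, adjusted p = 0.0311). On that scale 6.2% of all genes were higher and 41.4% lower.

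**Figure D4:**
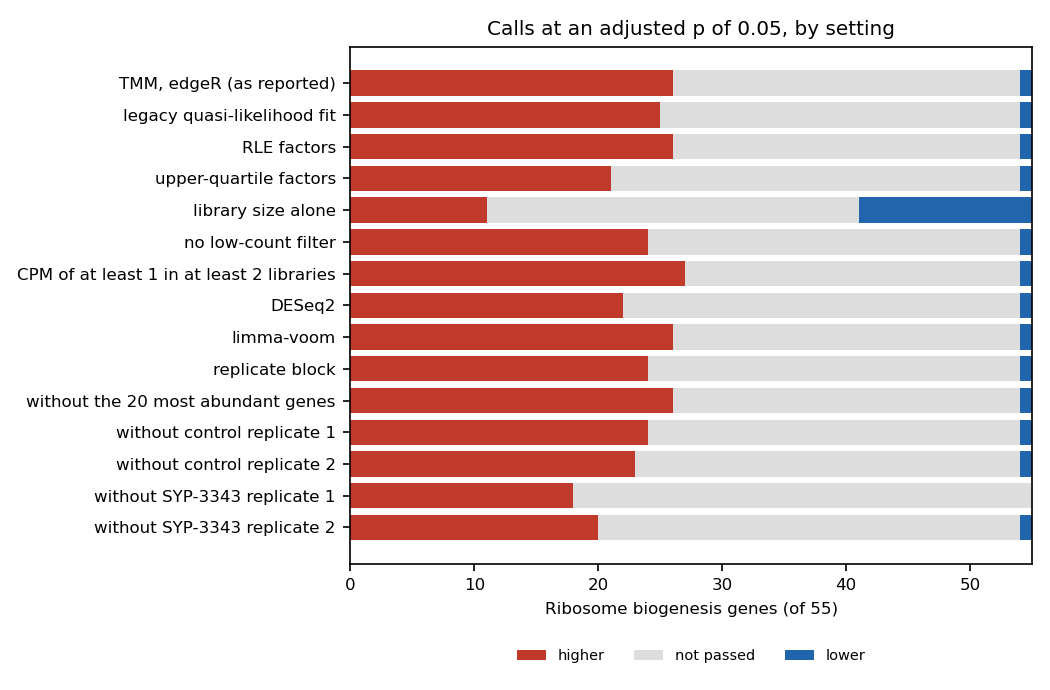
Each bar gives, for 1 setting, how many of the 55 genes were called higher (red), lower (blue) or did not pass (grey) at an adjusted p of 0.05. The count of higher genes is 26 as reported, 11 with library sizes alone and between 18 and 27 elsewhere, while lower genes number 14 with library sizes alone and 0 or 1 elsewhere.

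Other genes of the pathway were taken from lists drawn up by function, with earlier results of these data known. Their shares beside those of all genes are a description and not an independent test. In 6 lists for ribosomal RNA synthesis, subunit assembly and RNA processing, 154 genes were tested, with a median log2 fold change of 0.22. Of these 154, 55 rose (35.7%) and 3 fell (1.95%), beside 16.6% and 15.3% of all genes tested. Without scaling factors 24 were higher (15.6%) and 34 lower (22.1%), beside 6.2% and 41.4% of all genes. In large-subunit assembly and export, 22 of 48 genes rose (45.8%) and 1 fell (2.08%). The GTPase gene *gtpbp4* (1.599 ± 0.10) went from 149.6 ± 17.5 to 453 ± 8.69 CPM, *rsl24d1* (1.33 ± 0.10) from 123 ± 15 to 308 ± 19.7 CPM and *nsa2* (1.32 ± 0.10) from 269.6 ± 23.5 to 674 ± 30.3 CPM. Their products join the large subunit in the nucleus, and all 3 rose under both scalings. The SUMO protease gene *senp3b* (-0.39 ± 0.10), of a family that acts on large-subunit assembly factors in human cells, fell. In small-subunit assembly, 16 of 36 rose (44.4%) and 0 fell. The kinase gene *riok3* (1.00 ± 0.094), *pno1* (0.87 ± 0.093), whose product works with Nob1, and the helicase gene *dhx37* (0.73 ± 0.10) led there.

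Other snoRNP assembly genes rose in 3 of 13 (23.1%, beside 16.6% of all genes tested), with *nufip1* (0.80 ± 0.15), *znhit6* (0.46 ± 0.17) and the *SNU13* copy ENSDARG00000023299 (0.39 ± 0.10). Of RNA exosome and trimming genes 3 of 26 rose (11.5%) and 1 fell (3.85%), beside 16.6% and 15.3% of all genes. Those that rose were *exosc1* (0.95 ± 0.11), *exosc3* (0.59 ± 0.14) and *exosc10* (0.43 ± 0.095), and *exosc4* (-0.33 ± 0.11) fell. Of other RNA polymerase I genes 2 of 14 rose (14.3%), near the 16.6% of all genes, and 1 fell (7.14%, beside 15.3%). Those that rose were the subunits *polr1f* (0.37 ± 0.13) and *polr2f* (0.36 ± 0.10), and *ubtfl* (-0.38 ± 0.092), named after the polymerase I factor UBTF, fell. RNA polymerase III makes the small ribosomal RNA of the large subunit as well as transfer RNA. Of its subunits and factors 9 of 17 rose (52.9%) and 0 fell, beside 16.6% and 15.3% of all genes. With library sizes alone 8 of them were higher (47.1%), beside 6.2%. The factors *bdp1* (2.60 ± 0.30) and *brf1a* (2.39 ± 0.14), which place the polymerase at its genes, had the largest changes. *bdp1* had 35 and 63 counts in the controls and 281 and 164 with SYP-3343, and *brf1a* 291 and 431 against 1669 and 1144. For both, the groups did not overlap and replicate 1 was the higher of the exposed libraries. The subunit gene *polr3gla* (1.25 ± 0.23) followed.

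**Figure D5:**
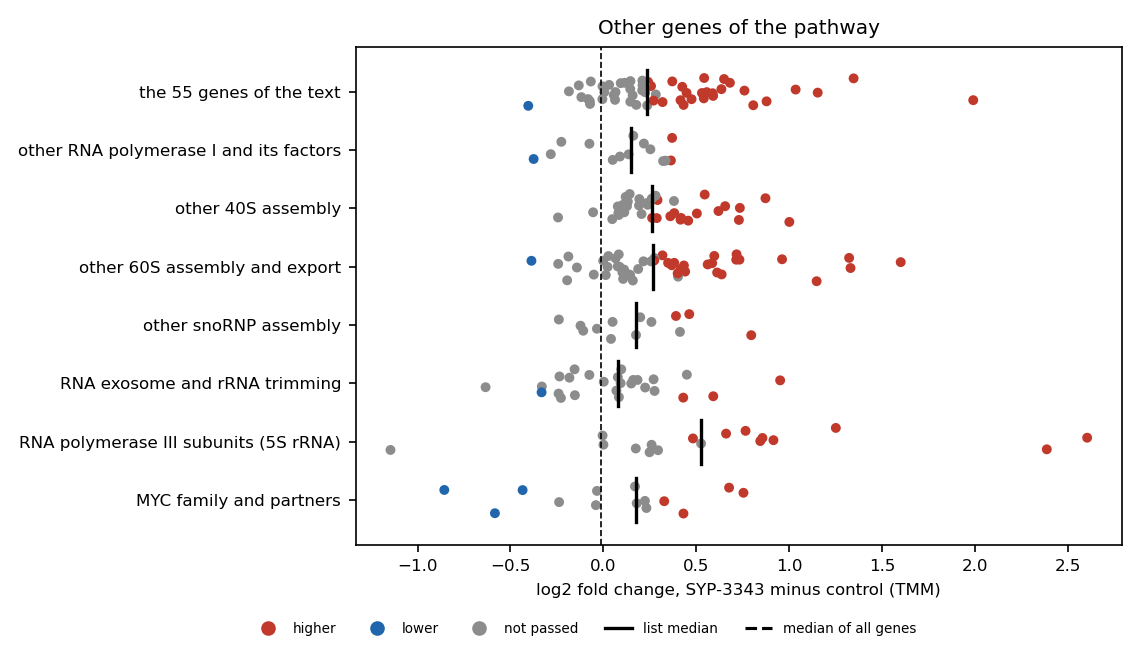
Each point is 1 tested gene, placed by its log2 fold change with TMM factors and coloured by its call (red, higher; blue, lower; grey, not passed), with a bar at the median of each list and a dashed line at the median of all genes. The medians run from 0.08 for the RNA exosome to 0.53 for RNA polymerase III, and every list shown holds grey points. Under library sizes alone all medians shown but that of the RNA polymerase III list lie below 0.

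Among upstream genes, the MYC list holds the MYC family, whose members drive ribosome biogenesis genes, with its partners and antagonists. Of 14 genes of the MYC list 4 rose (28.6%) and 3 fell (21.4%), beside 16.6% and 15.3% of all genes tested. All 3 that fell were antagonists, and no gene of the MYC family itself fell. With library sizes alone 2 were higher (14.3%) and 6 lower (42.9%), beside 6.2% and 41.4%. *mycn* (0.75 ± 0.090) went from 84 ± 3.14 to 142 ± 4.07 CPM and *mych* (0.68 ± 0.10) from 38.1 ± 2.07 to 60.8 ± 8.96 CPM, both higher under either scaling. The 2 copies named *MYC* did not pass (0.23 ± 0.10 for ENSDARG00000045695 and -0.035 ± 0.094 for ENSDARG00000007241). Antagonists that compete for the partner Max differed in direction. Of them *mxd4* (-0.86 ± 0.15), the *MNT* copy ENSDARG00000073988 (-0.58 ± 0.12) and *mxd1* (-0.43 ± 0.15) fell. The antagonist *mxd3* (0.33 ± 0.10) rose with TMM factors but not with library sizes alone, and the other *MNT* copy and *mxi1* (0.22 ± 0.091) did not pass. The Max-like *mlx* (0.43 ± 0.10) also rose with TMM factors but not with library sizes alone.

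Markers of some tissues differed between the same libraries, and their part in the results above was not tested. Marker calls were made with TMM factors only, where 16.6% of all genes tested rose and 15.3% fell. Of neural progenitor markers 5 of 8 rose and 0 fell, with a summed level of 505 and 588 CPM in the controls and 846 and 926 CPM with SYP-3343. All 5 epidermis markers and all 4 hatching gland markers rose. Epidermis markers summed to 7022 to 7214 CPM in the controls and 13472 to 14761 CPM with SYP-3343, and hatching gland markers to 201 to 244 and 548 to 680.0 CPM. Of neuron markers 5 of 7 fell and 1 rose, and their sum went from 1427 to 1463 CPM in the controls to 1215 to 1304 CPM. Skeletal muscle markers rose in 4 of 6 (13408 to 14469.9 against 18125 to 21343 CPM summed), and notochord markers fell in 2 of 6 (3349 to 3421 against 2476 to 2566 CPM). Of cycling-cell markers, 3 of 13 rose, 4 fell and 6 did not pass. Their summed level of 1447 and 1673 CPM in the controls overlapped the 1459.7 and 1704 CPM of the SYP-3343 libraries.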

How the data were processed

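Poly-A RNA of whole embryos was sequenced in 2 control and 2 SYP-3343 libraries. The authors deposited raw counts of reads per gene model. The submitters' processing notes name the build GRCz11 and, without roles, DESeq2 1.14.1, featureCounts 1.6.2, HTSeq, HISAT2 and TopHat2. The sources used here give neither annotation nor strand setting, so overlapping genes cannot be told apart by strand. Symbols came from a table of Ensembl names, compared without regard to case (41 of 55 are not in lower case there). No transcript lengths or sequences were used, so levels are not compared between genes.

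Genes passing edgeR's filterByExpr (22647) were scaled by TMM (factors 0.86 to 1.14) and compared by edgeR's two-sided quasi-likelihood test (edgeR 4.0.16, legacy option off), adjusted by Benjamini-Hochberg over all of them. Standard errors are the log2 coefficient over the root of F. Alternatives used RLE, upper-quartile or no factors, other filters, DESeq2 1.42.0, limma-voom (limma 3.58.1), a replicate block, removal of the 20 most abundant genes, removal of each library, and an adjusted p of 0.01. Where 1 library remained in a group, its spread was taken from the other group. Code was tested on simulated data. R 4.3.3, pandas 2.3.3 and matplotlib 3.10.9 were used.

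The 55 genes and all lists were chosen with earlier results of these data known. Of 195 other pathway symbols, 178 matched, giving 179 identifiers, of which 177 were tested. Every one of the 55 may be named. Values per library are given, in each role group, for the smallest adjusted p, the largest and smallest fold changes, the highest level and any gene called against its group, and of other lists fold changes for up to 3 called genes in each direction and genes of the MYC list. Of the other pathway lists, 1 is not reported here, though its genes count among the 177. Values per library of further genes, and of *bop1*'s partners, were added after their values were seen.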

Additional observations from a re-analysis of the deposited data

How the results depend on the processing

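The counts of all genes, of the 55 genes and of the other pathway genes called, and the median of the 55, were recomputed under each setting, while marker lists were not. Counts by role group and list were recomputed with library sizes alone, as given with each group. All genes higher numbered 1405 with library sizes alone against 3770, and all genes lower 9384 against 3455. All genes called numbered 4665 at an adjusted p of 0.01 against 7225. With library sizes alone, 11 of the 55 genes were higher against 26, 14 were lower against 1, 34 other pathway genes were higher against 68 and 40 were lower against 6, since that scaling moves every gene down by about the same amount. Upper-quartile factors made that last count 12. The count of 1 lower gene became 0 at an adjusted p of 0.01. Leaving out 1 library gave 0 to 1 lower and 18 to 24 higher genes, fewest without SYP-3343 replicate 1. The median log2 fold change of the 55 was 0.24 with TMM and RLE factors, 0.24 with DESeq2 and with the replicate number as a block, 0.17 with upper-quartile factors and -0.10 with library sizes alone, and 0.22 to 0.28 without 1 library. Without the low-count filter 24 genes were higher, beside 6634 of all genes called in either direction. A minimum of 1 CPM in 2 or more libraries gave 27, beside 7287. DESeq2 gave 22, beside 5499, and limma-voom 26, beside 7021. Without the 20 most abundant genes 26 were higher, beside 7188. With the legacy quasi-likelihood fit, an alternative chosen after seeing the data, 25 were higher, beside 7013. The fit as reported gave 26, beside 7225. The number of genes tested differed between some of these fits.

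Samples that share a replicate number in the labels did not deviate together (correlation of deviations across genes -0.027). With 2 libraries per group this cannot tell whether they share a clutch or tank, which the labels do not name. With the replicate number as a block 24 genes rose and 1 fell, the calls of *fbl* and *utp20* being lost (adjusted p = 0.0676 and 0.0529). All genes called numbered 7248 there, against 7225.

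No gene was called in opposite directions by different fits. With library sizes alone the log2 fold change was -0.16 for *polr1b*, -0.31 for *utp15*, -0.076 for *utp20*, -0.13 for *wdr75*, -0.24 for *bms1*, -0.19 for *imp4*, -0.19 for *nat10*, -0.12 for *tsr1*, -0.094 for *fbl*, -0.28 for *nop56*, -0.18 for *nop58*, -0.27 for *dkc1*, -0.13 for *nhp2*, -0.11 for *nop10*, -0.10 for *nolc1*, -0.015 for *wdr12*, -0.19 for *nop2*, -0.27 for *noc3l*, -0.11 for *gnl3*, -0.054 for *nip7*, -0.33 for *sbds*, -0.22 for *ncl*, -0.063 for *npm1a*. With upper-quartile factors it was -0.039 for *utp15*, -0.014 for *nop56*, -0.0071 for *dkc1*, -0.0045 for *noc3l*, -0.065 for *sbds*. With RLE factors it was 0.0027 for *rrn3*, 0.0022 for *gnl3l*, with limma-voom 0.0040 for *rrn3* and with DESeq2 9.4e-04 for *gnl3l*. Leaving out each library in turn gave -0.11 to 0.11 for *rrn3*, -0.11 to 0.20 for *utp15*, -0.18 to 0.027 for *gar1*, -0.055 to 0.17 for *noc3l*, -0.047 to 0.034 for *gnl3l*, -0.12 to 0.14 for *sbds*. Apart from the effect of the scaling, the cause of these changes was not tested. With 2 libraries per group and standard errors from 0.088 to 0.18, changes under about 0.25 on the log2 scale were mostly not detectable here, which does not show that such genes did not change.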
